A study of Mus musculus with 6 samples.

Results

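Transcripts of the mTOR complexes and of the upstream TSC regulators were followed in EPO-cultured mouse BM cells given NUP-17d, a small molecule that binds Plek2, or its vehicle DMSO. The genes were chosen by symbol, as the mTOR kinase with its main partners in mTOR complex 1 and complex 2 (mTORC1 and mTORC2), the 3 subunits of the TSC complex and the GTPase that the TSC complex controls. They are Mtor, Mlst8, Deptor, Rptor, Akt1s1, Rictor, Tsc1, Tsc2, Tbc1d7 and Rheb, 10 of the 17060 genes listed in the 6 libraries. All 10 were listed in every library and passed the filter on low counts, as did 12306 genes in all.

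Lineage-negative cells, a BM fraction enriched for stem and progenitor cells, came from WT mice and were placed in EPO medium, where they mature along the erythroid lineage. The samples are labeled as erythroblasts. DMSO or NUP-17d was present for 48 hours in both groups, 3 libraries were made per group, and the age of the mice and the number of animals are not given in the labels. The labels do not say whether the 3 libraries came from separate cultures or mice, so the p-values measure the spread between these libraries, which may be technical. Both groups came from WT mice, and the compound was the only labeled difference.

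mTOR is a protein kinase that works in 2 assemblies. In mTORC1 it is joined by raptor, which recruits substrates, and promotes protein synthesis and restrains autophagy when growth factors and amino acids are present. In mTORC2 it is joined by rictor, and it phosphorylates Akt and other kinases of that family at their hydrophobic motif. The TSC complex switches off Rheb, the lysosomal GTPase that activates mTORC1, and Akt relieves this brake by phosphorylating TSC2. EPO signals through PI3K and Akt to this pathway in erythroid cells.

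Positions of the members are given by the RefSeq gene spans of GRCm38.p6, the assembly that the label mm10 belongs to. The kinase gene Mtor spans chr4:148448582-148557685 on the plus strand, Rictor chr15:6708349-6800401 (plus), Rptor chr11:119602905-119899591 (plus), and Akt1s1 chr7:44849224-44855421 (plus). Mlst8 spans chr17:24473550-24479114 (minus) and Deptor chr15:55112317-55259273 (plus). The TSC genes are Tsc1 at chr2:28640993-28691172 (plus), Tsc2 at chr17:24595816-24632676 (minus) and Tbc1d7 at chr13:43151740-43171501 (minus), and Rheb spans chr5:24802823-24842361 (minus).

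RefSeq promoter sequences matched 9 of the 10 members by symbol, all except Deptor. The 250 bases before each start were searched on both strands for CACGTG, the E box read by MYC and TFEB type factors, for AGATAA, the motif read by Gata1 and its relatives, and for GTAAACA, which FoxO factors read. CACGTG was found in 2 of the 9 (6.02% of 32851 mouse promoters), AGATAA in 1 (9.99% of promoters) and GTAAACA in 0 (3.17% of promoters). The 2 E boxes began 96 bases before the start of Rheb and 53 bases before that of Tbc1d7, and the GATA motif began 159 bases before the start of Tsc1, inside the span of that gene because it has more than 1 annotated start. The Rheb E box lies before the RefSeq start but inside the GENCODE span of that gene, which reaches chr5:24842624. The 3 matches lay in 3 different promoters, so none overlapped another. The G+C share of the members' promoters ran from 37.6% in Rptor to 81.2% in Rictor, against a median of 52.4% over all promoters. The 3 stretches with a match are shown because Tsc1, which holds one of them, rose with NUP-17d, whereas Rheb and Tbc1d7 did not pass the test. The stretch just before the Rictor start is shown because Rictor had the largest fold change of the members in the TMM fit. Each is written 5′ to 3′ on the strand of its gene, from GRCm38.p6, with the motif in capitals. The Rictor stretch held no motif and has no capitals.
Rheb, chr5:24842440-24842469, minus strand: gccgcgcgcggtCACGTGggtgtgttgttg
Tbc1d7, chr13:43171537-43171566, minus strand: ccggttaacatcCACGTGtgggtgggactc
Tsc1, chr2:28641062-28641091, plus strand: tttcggttttatTTATCTcggccagcttgt
Rictor, chr15:6708131-6708348, plus strand: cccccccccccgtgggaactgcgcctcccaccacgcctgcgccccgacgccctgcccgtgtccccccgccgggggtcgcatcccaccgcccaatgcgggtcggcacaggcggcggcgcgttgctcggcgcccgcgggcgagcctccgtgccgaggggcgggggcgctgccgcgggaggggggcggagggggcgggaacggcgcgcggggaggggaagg
In Tsc1 the capitals read TTATCT, which is AGATAA on the other strand.

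The deposited expected counts, estimates of the reads from each gene, summed to between 20076409 and 20419018 per library. Hemoglobin genes took 18.3% to 20.3% of them with DMSO and 11.8% to 13.1% with NUP-17d, which leaves a larger part of each NUP-17d library for all other genes. The main comparison therefore used edgeR's TMM factors, which set the median log2 fold change of all tested genes to 0.014. With scaling by library totals only that median was 0.28. The summed level of 13 erythroid markers was 219817 to 253827 TMM-normalized CPM (counts scaled to a common library size) with DMSO and 121516 to 135911 with NUP-17d. In both groups this was the highest sum of the marker lists. Most of it came from hemoglobin genes, with Hba-a1 at 83204 and Hbb-bs at 84452 CPM in DMSO library 1. The rank of the sum thus depends on the genes listed and does not set the erythroid label. Detection alone does not set that label either. The 13 were detected in every library, but so were the markers of every other list except mast cell and basophil. All 13 were lower in the TMM fit and 11 in the totals fit. Summed CPM of 8 progenitor markers was 586 to 591 with DMSO and 619 to 636 with NUP-17d, and that of 10 neutrophil markers 3941 to 4108 and 4019 to 4298. The sums for 10 macrophage markers were 2751 to 2976 and 3062 to 3333, for 7 mast cell and basophil markers 212 to 228 and 188 to 194, for 7 megakaryocyte markers 449 to 496 and 519 to 539, and for 7 lymphoid markers 28.4 to 31.7 and 25.9 to 26.7. In the TMM fit, where 16.4% of all tested genes were higher and 18.9% lower, 4 of the 8 progenitor markers were higher and 0 lower, 2 and 1 of the 10 neutrophil markers, 3 and 2 of the 10 macrophage markers, 1 and 2 of the 6 mast cell and basophil markers tested, 5 and 0 of the 7 megakaryocyte markers and 0 and 2 of the 6 lymphoid markers tested. On totals-only scaling, where 68.7% of all genes were higher and 5.34% lower, the numbers higher and lower were 8 and 0 for progenitor, 8 and 0 for neutrophil, 7 and 0 for macrophage, 2 and 0 for mast cell and basophil, 7 and 0 for megakaryocyte and 1 and 1 for lymphoid markers. Of the mast cell and basophil markers 1 was at 0 in at least 1 library. The part that this shift in cell makeup had in the results below was not tested, and in bulk RNA fewer cells of a type and less RNA per cell cannot be told apart.

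NUP-17d was accompanied by a lower level of Rictor and a higher level of Tsc1, whereas Mtor, Rptor, Akt1s1, Deptor, Tsc2, Tbc1d7 and Rheb did not pass the test in the TMM fit. Mlst8 passed it narrowly on the lower side. With edgeR's quasi-likelihood test and p-values adjusted over all tested genes at a threshold of 0.05, 1 of the 10 members was higher, where 16.4% of all tested genes were, and 2 were lower, where 18.9% of all genes were. The members' CPM did not overlap between the groups for 3 of the 10, against 46.0% of all genes. Their median log2 fold change was 0.040, beside 0.014 over all tested genes. With scaling by totals only, 7 members were called higher, where 68.7% of all genes were, and 1 lower, where 5.34% were, and the members' median was 0.31 beside 0.28 for all genes. Relative to the median of all genes, the 3 members called in the TMM fit stood at the same distance in both scalings. On the log2 scale it was -0.41 for Rictor, -0.17 for Mlst8 and 0.16 for Tsc1. A change of scaling moves all genes by nearly the same amount, so this sameness was fixed in advance and supports no call.

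**Figure D1:**
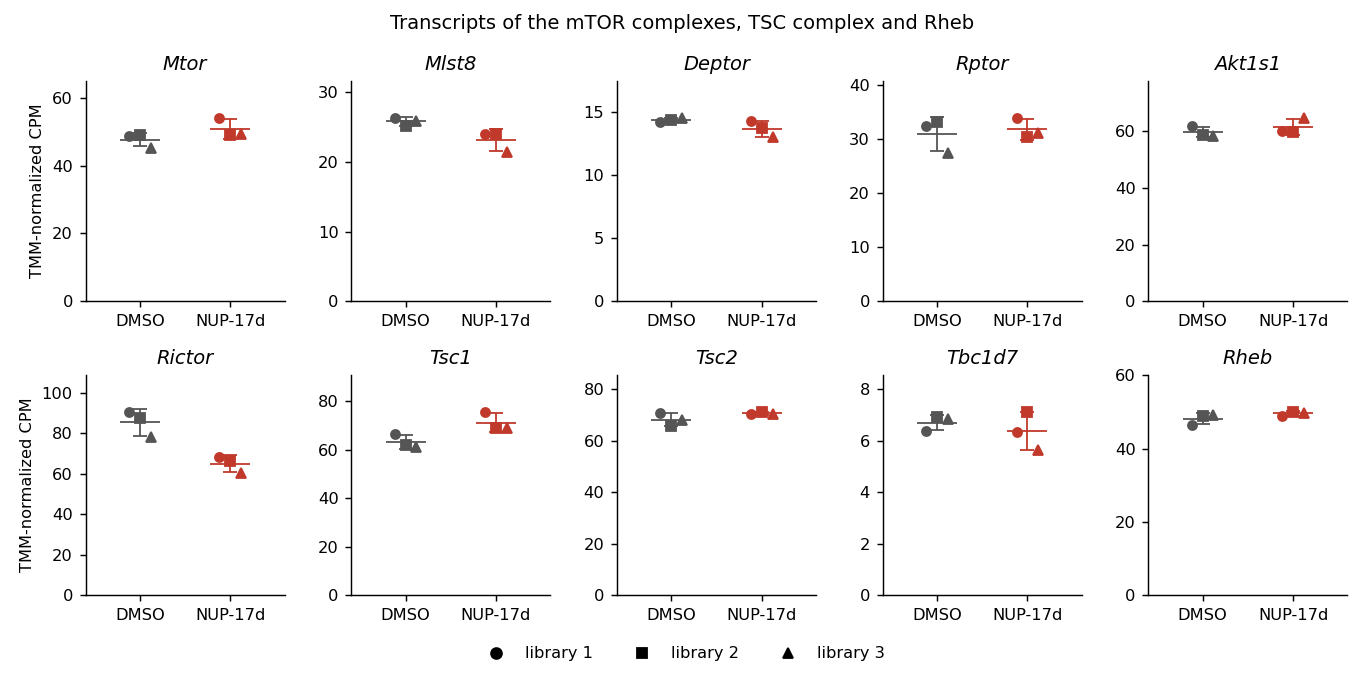
TMM-normalized CPM of the 10 members (y axes, each starting at 0) in 3 DMSO and 3 NUP-17d libraries. Symbols are single libraries, horizontal lines the group mean and error bars the SD (n = 3). Rictor, Tsc1 and Mlst8 are the panels in which the groups do not overlap. On totals-only scaling Mlst8 is higher, not lower, with NUP-17d.

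Rictor, the scaffold that defines mTORC2, had the largest fold change of the members in the TMM fit. On totals-only scaling its log2 fold change was smaller in size than that of every other member except Mlst8. The level of Rictor was 90.7, 87.3 and 78.0 CPM in DMSO libraries 1, 2 and 3 and 68.2, 66.3 and 60.3 CPM in NUP-17d libraries 1, 2 and 3. Each NUP-17d library lay below each DMSO library. The group means were 85.4 ± 6.57 and 65.0 ± 4.11 CPM (SD, n = 3 each), and Rictor fell by 23.9% (log2 fold change -0.39, 95% interval -0.50 to -0.29, edgeR adjusted p = 6.2e-07). The fall was past the threshold in each of the 6 fits that left out 1 library (log2 fold change -0.45 to -0.34) and in DESeq2 (adjusted p = 6.84e-09). On totals-only scaling the log2 fold change was -0.13 (edgeR adjusted p = 0.040), and in limma on log2(FPKM + 1), which has no correction for library composition, it was -0.11 and not past the threshold (adjusted p = 0.163). The Rictor counts were whole numbers in all 6 libraries, between 1317 and 1657, and no annotated gene overlaps its exons. The summed erythroid markers and the hemoglobin share given above moved in the same direction across the groups, and their part in the fall of Rictor was not tested.

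The other named subunits of mTORC2 did not pass the test in the TMM fit. Mapkap1, the subunit that binds the kinases mTORC2 phosphorylates, was at 36.7 ± 1.19 CPM with DMSO and 37.7 ± 0.796 CPM with NUP-17d (log2 fold change 0.04, 95% interval -0.06 to 0.14, edgeR adjusted p = 0.570). Prr5, also called Protor-1, was at 6.60 ± 0.0330 and 7.67 ± 0.705 CPM, with no overlap between the groups (log2 fold change 0.21, edgeR adjusted p = 0.120). Its relative Prr5l measured 4.81, 4.89 and 6.29 CPM in the DMSO libraries and 4.96, 3.62 and 3.79 CPM in the NUP-17d libraries, so the groups overlapped (log2 fold change -0.37, 95% interval -0.67 to -0.06, edgeR adjusted p = 0.0536). It passed when DMSO library 1 (edgeR adjusted p = 0.0402) or NUP-17d library 1 (0.0131) was left out. Prr5 and Prr5l lay between 3.62 and 8.22 CPM and had the widest intervals of the mTORC2 transcripts. On totals-only scaling Mapkap1 (log2 fold change 0.31, edgeR adjusted p = 1.58e-05) and Prr5 (0.48, edgeR adjusted p = 0.000323) were called higher, and Prr5l was at -0.10 (edgeR adjusted p = 0.549).

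The kinase Mtor, shared by both complexes, was at 48.7, 48.9 and 45.3 CPM in DMSO libraries 1, 2 and 3 and at 54.1, 48.9 and 49.4 CPM in NUP-17d libraries 1, 2 and 3. The groups overlapped at 48.9 CPM. The log2 fold change was 0.09 (95% interval -0.01 to 0.19, edgeR adjusted p = 0.140), and on totals-only scaling 0.36 (edgeR adjusted p = 2e-06), which is 0.08 above the median of all genes in that fit.

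Mlst8 encodes the WD-repeat subunit that binds the kinase domain in both complexes. It was at 26.3, 25.1 and 25.9 CPM with DMSO and at 24.02, 23.98 and 21.3 CPM with NUP-17d, libraries 1, 2 and 3 in order. The groups did not overlap, with NUP-17d library 3 lowest. The log2 fold change was -0.16 (95% interval -0.28 to -0.03, edgeR adjusted p = 0.0437) but 0.11 on totals-only scaling (edgeR adjusted p = 0.119). The call was lost in DESeq2 (adjusted p = 0.184), without the filter on low counts (edgeR adjusted p = 0.0628), and when DMSO library 1 (0.124), DMSO library 2 (0.0565), DMSO library 3 (0.0992) or NUP-17d library 3 (0.215) was left out (edgeR adjusted p in each). Of the 4435 exon bases that GENCODE annotates for Mlst8, 997 (22.5%) are also exons of Bricd5 on the opposite strand. Bricd5 had expected counts of 0 to 21.4 per library, against 466 to 535 for Mlst8. Mlst8 counts were not whole in DMSO libraries 2 and 3 and NUP-17d library 1, the libraries in which Bricd5 was above 0. Descriptions of the library kit differ on whether strand was kept, so reads from the shared bases cannot be assigned by strand here.

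Deptor encodes an inhibitor that binds mTOR in both complexes. Its CPM was 14.3, 14.4 and 14.6 with DMSO and 14.3, 13.7 and 13.0 with NUP-17d. The highest NUP-17d library lay within the DMSO range. The log2 fold change was -0.07 in the TMM fit (95% interval -0.22 to 0.08, edgeR adjusted p = 0.469) and 0.20 on totals-only scaling (edgeR adjusted p = 0.0237), so its direction depended on the scaling.

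The subunits that define mTORC1 did not differ beyond their spread in the TMM fit. Rptor, the gene of raptor, was at 32.4, 33.1 and 27.4 CPM with DMSO and at 33.9, 30.3 and 31.1 CPM with NUP-17d (log2 fold change 0.04, 95% interval -0.09 to 0.17, edgeR adjusted p = 0.694). DMSO library 3 was lowest of the 6, and without it the log2 fold change was -0.05. Akt1s1, which encodes PRAS40, a raptor-bound inhibitor that Akt phosphorylates, was at 59.7 ± 1.83 and 61.6 ± 2.77 CPM (log2 fold change 0.05, 95% interval -0.04 to 0.14, edgeR adjusted p = 0.445). Both intervals exclude the Rictor change. On totals-only scaling both genes were called higher, with log2 fold changes of 0.30 and 0.31, close to the median of all genes in that fit.

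Within the TSC complex Tsc1 rose. TSC1, or hamartin, stabilizes TSC2. Its CPM was 66.3, 61.7 and 61.2 in DMSO libraries 1, 2 and 3 and 75.7, 68.7 and 68.7 in NUP-17d libraries 1, 2 and 3. Each NUP-17d library lay above each DMSO library. The means were 63.1 ± 2.83 and 71.0 ± 4.0 CPM, a rise of 12.6% (log2 fold change 0.17, 95% interval 0.08 to 0.27, edgeR adjusted p = 0.00437). Tsc1 was called higher in each of the other settings and in each fit without 1 library (log2 fold change 0.12 to 0.21 in the latter), with its smallest value when NUP-17d library 1 was left out. In DESeq2 the adjusted p was 0.0254. The erythroid markers moved opposite to Tsc1 across the groups, and their part in its rise was not tested.

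Tsc2, or tuberin, carries the GTPase-activating domain that acts on Rheb. It was at 70.7, 65.9 and 68.1 CPM with DMSO and at 70.4, 71.4 and 70.4 CPM with NUP-17d, and DMSO library 1 lay inside the range of the NUP-17d libraries (log2 fold change 0.05, 95% interval -0.03 to 0.14, edgeR adjusted p = 0.334). On totals-only scaling Tsc2 was called higher, with a log2 fold change of 0.32 (edgeR adjusted p = 6.67e-07). Its exons share 693 of 9620 bases with Pkd1 on the opposite strand, and its expected counts were not whole in any of the 6 libraries. Pkd1 had expected counts of 616 to 1011 per library, against 1250 to 1593 for Tsc2. In the TMM fit Pkd1 rose (log2 fold change 0.28, edgeR adjusted p = 0.00019). The part of the shared bases in the Tsc2 values was not tested. Tbc1d7, the third subunit, had the fewest expected counts, 115 to 159 per library. It measured 6.35, 6.90 and 6.82 CPM with DMSO and 6.33, 7.13 and 5.63 CPM with NUP-17d, and both the highest and the lowest library were NUP-17d libraries. Its log2 fold change was -0.07 with a wide 95% interval of -0.31 to 0.16 (edgeR adjusted p = 0.657), and it was 0.19 on totals-only scaling (edgeR adjusted p = 0.136).

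Rheb, the GTPase held in check by the TSC complex, was at 46.4, 48.8 and 49.1 CPM with DMSO and at 48.9, 50.1 and 49.8 CPM with NUP-17d. DMSO library 3 lay above NUP-17d library 1. The log2 fold change was 0.04 (95% interval -0.05 to 0.13, edgeR adjusted p = 0.473). Its expected counts were not whole in any library, and no other gene is annotated over its exons. On totals-only scaling the log2 fold change was 0.31 (edgeR adjusted p = 8.04e-06).

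**Figure D2:**
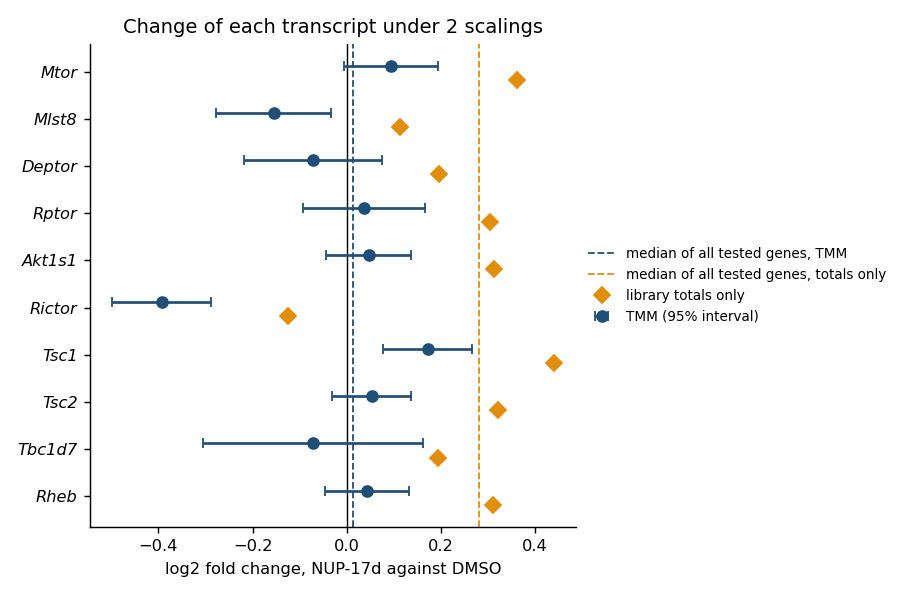
Log2 fold change of each member, NUP-17d against DMSO (x axis). Blue circles with bars are TMM estimates with 95% intervals and orange diamonds totals-only estimates. Dashed lines mark the median of all tested genes in each scaling, 0.014 and 0.28. Mlst8, Deptor and Tbc1d7 are below 0 with TMM and above 0 with totals only, and Rictor is the one member below 0 in both.

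A ratio of 2 transcripts in the same library needs no scaling between libraries. Ratios of FPKM, the authors' count per length and library total, were formed for 9 pairs and compared by a 2-sided exact permutation test, which cannot go below p = 0.1 with 3 libraries against 3. Rictor over Rptor, the defining subunits of the 2 complexes, was 2.11, 1.99 and 2.14 in the DMSO libraries and 1.52, 1.64 and 1.46 in the NUP-17d libraries. The ratio was lower in 3 of 3 NUP-17d libraries, with no overlap and a log2 difference of -0.43 (exact permutation p = 0.1, adjusted over the 9 ratios 0.18). Rictor over Mtor went from 1.65 ± 0.0653 to 1.18 ± 0.0651, a log2 difference of -0.49 with the same p. Mlst8 over Mtor went from 1.40 ± 0.0734 to 1.18 ± 0.0808 (log2 difference -0.25), Deptor over Mtor from 0.306 ± 0.0171 to 0.272 ± 0.0112 (-0.17) and Tsc1 over Tsc2 from 0.738 ± 0.0170 to 0.801 ± 0.0488 (0.12), each without overlap and each with exact permutation p = 0.1 and an adjusted 0.18. No ratio passed a threshold of 0.05, which this test cannot reach with 3 libraries per group.

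The other 4 ratios overlapped between the groups. Rptor over Mtor was 0.796 ± 0.0456 with DMSO and 0.766 ± 0.00359 with NUP-17d (log2 difference -0.05, exact permutation p = 0.4). Akt1s1 over Rptor was 8.47 ± 0.761 and 8.54 ± 0.698 (exact permutation p = 0.9). Tbc1d7 over Tsc2 was 0.492 ± 0.0364 and 0.448 ± 0.0509 (exact permutation p = 0.3), and Rheb over Tsc2 2.91 ± 0.180 and 2.89 ± 0.0251 (exact permutation p = 0.9). The ratios without overlap were thus Rictor over Mtor, Rictor over Rptor, Mlst8 over Mtor, Deptor over Mtor and Tsc1 over Tsc2. A ratio also takes in the change of its denominator. In the TMM fit Deptor had a log2 fold change of -0.07 and Mtor of 0.09, and neither passed the test. Ratios over Tsc2 also take in any reads from the bases it shares with Pkd1, which was not tested. Raptor's ratio to the kinase did not separate the groups.

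**Figure D3:**
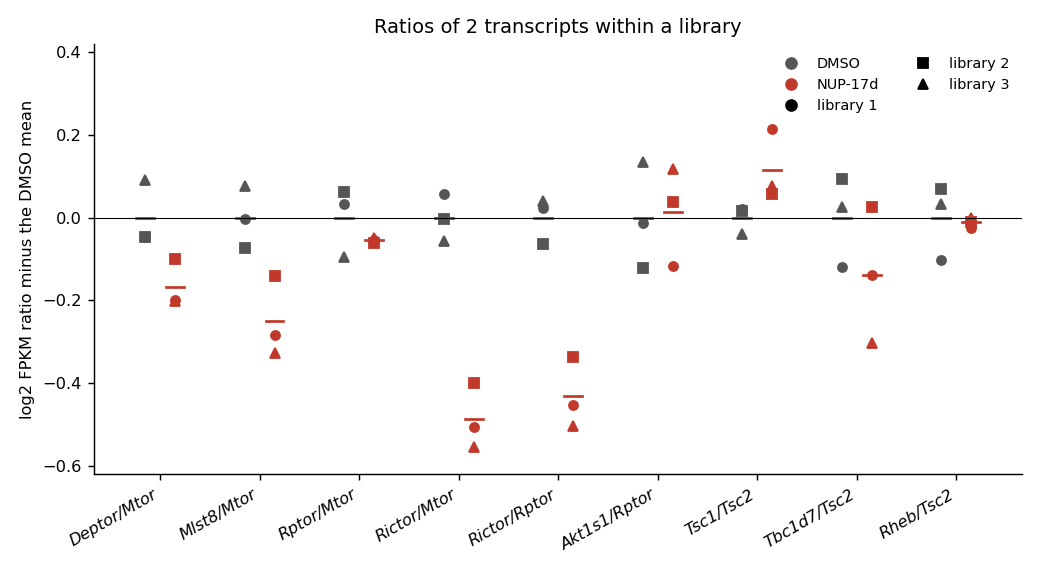
Log2 of the FPKM ratio of 2 members within a library, minus the mean of the 3 DMSO libraries (y axis), for 9 ratios (x axis). Symbols are libraries and short lines group means. NUP-17d libraries lie below all DMSO libraries for Rictor/Mtor, Rictor/Rptor, Mlst8/Mtor and Deptor/Mtor and above them for Tsc1/Tsc2.

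Levels of different members were compared per transcript length, as FPKM divided by the TMM factor of the library. With DMSO the order from high to low was Akt1s1 at 36.3 ± 1.15, Rheb at 31.6 ± 0.969, Tsc2 at 10.9 ± 0.373, Rictor at 8.96 ± 0.686, Tsc1 at 8.02 ± 0.360, Mlst8 at 7.56 ± 0.167, Mtor at 5.41 ± 0.227, Tbc1d7 at 5.33 ± 0.219, Rptor at 4.32 ± 0.421 and Deptor at 1.65 ± 0.0217 (SD, n = 3). The ranges of Rictor and Tsc1 overlapped, as did those of Mtor and Tbc1d7, and the other neighbors in the order did not overlap. Akt1s1 thus stood above 84.7% of all tested genes and Deptor above 20.1%, and the median of the tested genes was 8.06. With NUP-17d the order was the same except that Tsc1, at 9.06 ± 0.513, stood above Rictor, at 6.84 ± 0.433, and the ranges of these genes no longer overlapped. Rictor was then level with Mlst8, at 6.81 ± 0.462, and their ranges overlapped, as did those of Mtor with Tbc1d7 and of Tbc1d7 with Rptor. In both groups the subunits of mTORC1 differed widely, with Akt1s1 far above Rptor.

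**Figure D4:**
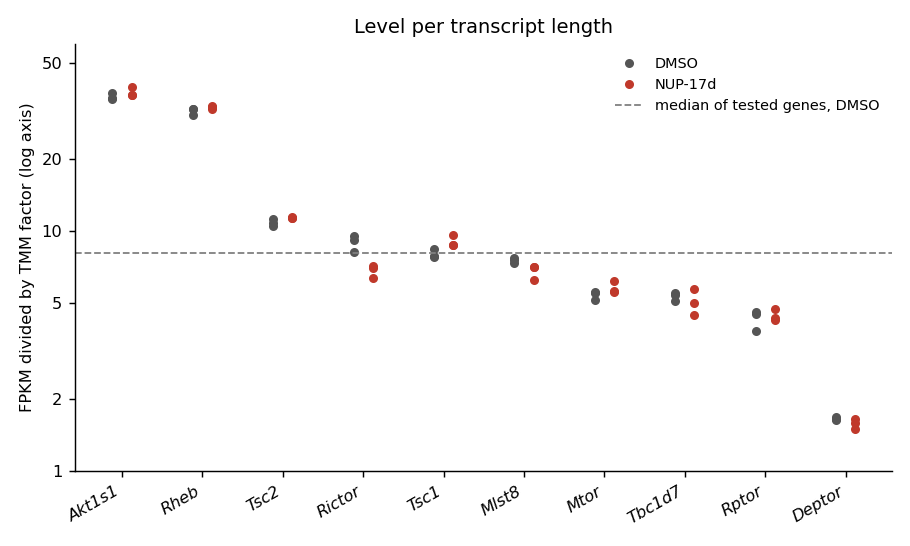
Level per length of the 10 members, as FPKM divided by the TMM factor (y axis, log scale), ordered by the DMSO mean. Points are single libraries, 3 per group, and the dashed line is the median of all tested genes with DMSO, 8.06. Tsc1 and Rictor change places between the groups, and the other members keep their order.

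Other genes of the pathway were read from lists of 79 genes, of which 76 were tested. In the TMM fit 9 were higher and 17 lower (edgeR), beside 16.4% and 18.9% of all tested genes, and their median log2 fold change was -0.01. With totals-only scaling 59 were higher and 5 lower, beside 68.7% and 5.34%. The genes that were not tested, at 7 counts or fewer per library, were Prkag3, Ddit4l and Sgk2.

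Of the kinases that mTORC2 phosphorylates, 4 of the 5 tested rose and 0 fell in the TMM fit, with a list median of 0.23. Of all tested genes 16.4% were higher and 18.9% lower in that fit. With totals-only scaling 5 were higher and 0 lower, beside 68.7% and 5.34% of all genes. Sgk1, a serum- and glucocorticoid-induced kinase, was at 20.7, 23.0 and 22.6 CPM with DMSO and at 26.9, 29.7 and 27.5 CPM with NUP-17d (log2 fold change 0.34, edgeR adjusted p = 4.95e-05). Prkcb, a protein kinase C gene, rose from 33.0 ± 0.820 to 41.2 ± 3.99 CPM (log2 fold change 0.32, edgeR adjusted p = 8.54e-05). Prkca, another protein kinase C gene, rose from 26.6 ± 1.35 to 31.3 ± 0.466 CPM (log2 fold change 0.23, edgeR adjusted p = 0.00118). In each of the 3 the NUP-17d libraries lay above all DMSO libraries. The 3 were picked for the lowest p in this list, so that separation is no further support. Over all tested genes 46.0% had groups that did not overlap. These 3 genes were also called higher on totals-only scaling.

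Among 4 relatives of Rheb and Tsc2, 1 rose and 0 fell in the TMM fit, beside 16.4% and 18.9% of all tested genes. With totals-only scaling 3 were higher and 0 lower, beside 68.7% and 5.34%. Ralgapa2 encodes a catalytic subunit of the Ral GTPase-activating complex, which resembles the TSC complex in makeup. It was at 35.0, 32.0 and 33.2 CPM with DMSO and at 50.8, 45.5 and 45.1 CPM with NUP-17d, with no overlap (log2 fold change 0.50, 95% interval 0.39 to 0.61, edgeR adjusted p = 2.5e-08). The other catalytic subunit, Ralgapa1 (log2 fold change 0.11, edgeR adjusted p = 0.0571), and the shared subunit Ralgapb (0.10, edgeR adjusted p = 0.0561) did not pass. Without NUP-17d library 3 both did (edgeR adjusted p = 0.0446 and 0.0241), and Ralgapb also without DMSO library 1 (0.0194).

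Of 8 genes for complex assembly and Deptor turnover, 3 fell and 0 rose in the TMM fit, and the list median was close to 0. Of all tested genes 18.9% were lower and 16.4% higher in that fit. With totals-only scaling 5 were higher and 1 lower, beside 68.7% and 5.34% of all genes. Btrc encodes beta-TrCP, the F-box protein that marks DEPTOR for degradation. It was at 80.9, 77.9 and 82.7 CPM with DMSO and at 50.5, 52.4 and 53.8 CPM with NUP-17d, the largest change in these lists (log2 fold change -0.62, 95% interval -0.71 to -0.54, edgeR adjusted p = 3.53e-12), and it fell on totals-only scaling as well (-0.36). Deptor itself did not pass in the same fit. Ruvbl1 and Ruvbl2, the ATPases that help assemble mTOR and related kinases, each had a log2 fold change of -0.19 (edgeR adjusted p = 0.00464 and 0.00093) but values of 0.08 and 0.07 on totals-only scaling.

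Of 19 tested genes for Akt, AMPK and stress inputs to TSC, 1 rose and 5 fell in the TMM fit, with a list median of -0.06. The shares over all tested genes were 16.4% higher and 18.9% lower. With totals-only scaling 15 were higher and 1 lower, beside 68.7% and 5.34%. Stradb, a pseudokinase partner of LKB1, which activates AMPK, fell from 220.9 ± 9.24 to 166.0 ± 7.40 CPM (log2 fold change -0.41, edgeR adjusted p = 2.96e-09). Ddit4 encodes REDD1, which restrains mTORC1 through the TSC complex. It went from 35.8 ± 0.941 to 28.7 ± 0.570 CPM (log2 fold change -0.32, edgeR adjusted p = 1.32e-05), and on totals-only scaling it did not pass (-0.05, edgeR adjusted p = 0.414).

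The amino acid branch signals to mTORC1 at the lysosome apart from TSC. In the TMM fit 1 of its 22 genes rose and 5 fell, with a list median of 0.04. The shares over all tested genes were 16.4% higher and 18.9% lower. With totals-only scaling 16 were higher and 2 lower, beside 68.7% and 5.34%. Sesn1, a leucine sensor of the sestrin family, fell from 125.6 ± 1.48 to 88.6 ± 2.57 CPM (log2 fold change -0.50, edgeR adjusted p = 2.15e-11). Nprl3, a subunit of the GATOR1 complex that inhibits mTORC1, fell from 45.9 ± 2.07 to 34.9 ± 1.01 CPM (log2 fold change -0.39, edgeR adjusted p = 2.86e-07). Slc38a9, a lysosomal arginine sensor, had a log2 fold change of -0.35 (edgeR adjusted p = 4.63e-08), and on totals-only scaling it was -0.08 and not past the threshold. Sesn1 and Nprl3 passed on the lower side in both scalings.

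Of 15 mTORC1 substrates and next effectors, 2 rose and 4 fell in the TMM fit, with a list median of -0.04. The shares over all tested genes were 16.4% higher and 18.9% lower. With totals-only scaling 13 were higher and 1 lower, beside 68.7% and 5.34%. Eef2k, the kinase that slows translation elongation and that S6 kinase inhibits, fell from 210.2 ± 9.76 to 162.4 ± 3.07 CPM (log2 fold change -0.37, edgeR adjusted p = 8.23e-09). Ulk1, the autophagy-initiating kinase that mTORC1 phosphorylates, went from 775.7 ± 22.9 to 649.8 ± 13.9 CPM (log2 fold change -0.26, edgeR adjusted p = 1.63e-06), and on totals-only scaling its value was 0.01. Its partner Atg13 was lower in the TMM fit (-0.17, edgeR adjusted p = 0.00155) and higher on totals-only scaling (0.10, edgeR adjusted p = 0.0424). As for the members, the part of the erythroid shift in these changes was not tested.

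**Figure D5:**
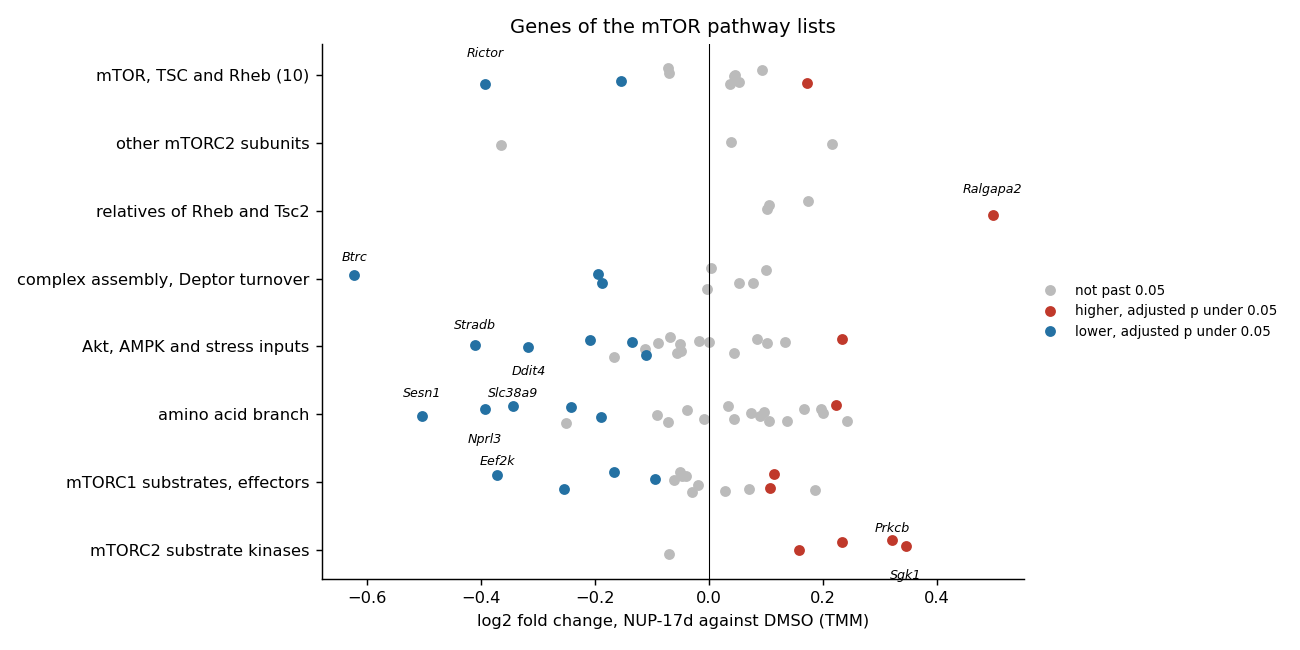
Log2 fold change with TMM (x axis) of each tested gene in the lists named on the y axis. Red and blue points passed an edgeR adjusted p of 0.05 upward and downward, and gray points did not. Names mark passing genes at or beyond 0.3 in size. Of the mTORC2 substrate kinases, 4 of 5 are red, where 16.4% of all tested genes were higher. Btrc and Ralgapa2 are the outermost points. With totals-only scaling all points lie about 0.27 further to the right.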

How the data were processed

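The authors deposited a table per library with an expected count and an FPKM for each gene with reads. The expected count is the authors' estimate of reads per gene and is not normalized (27.8% to 28.5% of values were not whole). The deposited FPKM is that count per transcript length and library total, without correction for composition. The labels name the build mm10, and the aligner and counting program are not given in the sources used here. The paper's methods name a stranded kit and another sequencer than the labels, so whether the libraries kept strand was not settled.

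A gene missing from a table was taken as 0. Expected counts were rounded and tested with edgeR 4.0.16 in R 4.3.3 (filterByExpr, TMM, quasi-likelihood test, all 6 libraries, no covariate), with Benjamini-Hochberg adjustment over 12306 genes and a threshold of 0.05. Ratios were tested by exact permutation in Python 3.11.15. CPM was computed with the TMM factors. Positions and promoters came from RefSeq, and exon overlaps from GENCODE, both on GRCm38.p6. Named genes were all 10 members, the 3 other mTORC2 subunits and the 3 genes of lowest p in each other list. Of these, 1 gene is not reported here. Genes that were not tested were named after their values were seen. The members and lists were chosen with earlier results of these data known. Alternatives were DESeq2 1.42.0, RLE factors, library totals, removal of hemoglobin genes, no filter, limma 3.58.1 on log2 FPKM with a pseudocount of 1 or 0.1, the replicate number as a block, and fits without 1 library each. Library totals after removal of hemoglobin genes was added after seeing the data. On simulated counts for this comparison, edgeR found 43 of 67 genes changed 1.25-fold, 60 of 66 changed 1.5-fold and 63 of 65 changed 2-fold, with 7 false calls among 12220 genes. The simulation changed 200 genes alternately up and down, with 1 dispersion for all genes. It did not include the shift in hemoglobin share, so it does not measure errors that come from scaling.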

Additional observations from a re-analysis of the deposited data

How the results depend on the processing

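Most changes of call came with the scaling of the libraries. Rictor was lower and Tsc1 higher in every setting, with Rictor past the threshold in all but the limma settings. Members called higher numbered 7 with library totals, 6 with totals without hemoglobin genes and 6 in each limma setting, against 1. Members called lower numbered 1 with DESeq2, with no filter, with library totals and with totals without hemoglobin genes, 0 in each limma setting, and 1 to 2 with 1 library left out, against 2. Other pathway genes called higher numbered 59, 41, 60 and 60 with totals, totals without hemoglobin, limma + 1 and limma + 0.1, and those called lower 5, 9, 5 and 5. In the order totals, limma + 1 and limma + 0.1, the log2 fold changes that turned positive were 0.11, 0.10 and 0.11 for Mlst8, 0.20, 0.12 and 0.19 for Deptor, 0.19, 0.16 and 0.18 for Tbc1d7, 0.078, 0.080 and 0.083 for Ruvbl1, 0.073, 0.074 and 0.077 for Ruvbl2, 0.012, 0.016 and 0.016 for Ulk1, and 0.10, 0.099 and 0.10 for Atg13. Totals without hemoglobin genes gave 0.078 for Deptor and 0.077 for Tbc1d7. None of these settings applies a TMM or RLE factor. With 1 library left out, Rptor ranged from -0.046 to 0.088 and Tbc1d7 from -0.16 to 0.0054. RLE factors and TMM after removal of hemoglobin genes changed no member's call. The 9 ratios kept their direction with expected counts in place of FPKM, and with 1 library left out all did except Akt1s1 over Rptor (-0.048 to 0.081) and Rheb over Tsc2 (-0.063 to 0.023). Same-numbered libraries did not deviate together (correlations 0.034, -0.021 and -0.032, with 2 of the 6 libraries correlating best with their own number), so the numbers were not taken to pair them. With the replicate block 1 member was higher and 2 lower, 10 other pathway genes higher and 19 lower, with Prr5l (edgeR adjusted p = 0.0471) and Ralgapb (0.0242) newly past the threshold. Tbc1d7, at 115 to 159 counts, was limited by depth, and only relative abundance of RNA could be read, without protein or phosphorylation.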
